A study of Homo sapiens with 10 samples.

Results

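Fc receptors are the surface proteins through which myeloid cells recognize the constant part of antibodies, and the genes described here are the 7 that encode the classical myeloid set, FCGR1A, FCGR2A, FCGR2B, FCGR3A, FCER1G, FCAR and FCGRT. They were taken by their symbols from the protein-coding rows of 2 tables of NB4 cells, and all 7 of the listed genes were found among 60603 rows. NB4 is an established cell line from acute promyelocytic leukemia. In the knockdown experiment, the cells received by lentivirus either pLKO.1 puro without a hairpin (EV) or pLKO.1 with shA1 or shB2, hairpins directed at GSE1, and were collected 48 h later. In the inhibition experiment, NB4 cells not labelled as transduced received DMSO or the LSD1 inhibitor MC2580 at 2 µM for 24 h. Each of the 5 groups has 2 libraries, so that 6 libraries belong to the knockdown experiment and 4 to the inhibition experiment.

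The value used throughout is the authors' base mean, a normalized read count averaged over all libraries of an experiment, treated and control together. It has no error, as the tables give no value per library, and it cannot show a difference between EV, shA1 and shB2 or between DMSO and MC2580. No test was therefore made, and the values below describe how much of each Fc receptor transcript the NB4 cells of an experiment held on average. In a bulk sample, a lower level can mean fewer cells that express the gene or less RNA in each, and these cannot be told apart.

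Most activating Fc receptors bind antibody with one chain and signal through tyrosines in a motif called ITAM. FCGR1A, the high-affinity IgG receptor (CD64), FCGR3A (CD16A) and FCAR, the IgA receptor (CD89), borrow this motif from the common gamma chain, which FCER1G encodes. FCGR2A (CD32A) carries an ITAM in its own tail, and FCGR2B (CD32B) carries the opposing inhibitory motif, ITIM. FCGRT encodes the heavy chain of FcRn, which rescues IgG from degradation inside the cell and pairs with beta-2-microglobulin. On neutrophils and monocytes the activating receptors start phagocytosis, release of oxygen radicals and killing of antibody-coated targets.

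The promyelocyte markers were present but for 1 gene. MPO, myeloperoxidase of the azurophil granules, had the highest base mean of all genes in both tables, 506765 and 824818 in the knockdown and the inhibition experiment. PRTN3, AZU1 and CTSG, other azurophil granule genes, lay between it and ELANE, the neutrophil elastase gene, which was close to absent at 1.10 and 3.87. The markers of other cells in which Fc receptors are known were uneven. At most 4 of 5 genes of a list had a base mean of at least 10. Of all protein-coding genes, 63.1% reached 10 in the knockdown experiment and 63.0% in the inhibition experiment. Among the monocyte genes CD14, CSF1R, CD163 and VCAN, the base means in the knockdown experiment ran from 0.170 for CD163 to 668 for CSF1R. Among the NK cell genes NCAM1, KLRD1, NKG7, GNLY and KLRF1 they ran from 0.176 for KLRF1 to 2346 for NKG7, and among the B cell genes MS4A1, CD79A, CD79B and PAX5 from 0.217 for MS4A1 to 1071 for CD79B. The T cell genes CD3D, CD3E, CD3G, CD2 and TRAC ranged from 1.55 for CD3E to 866 for CD3D. In the mast cell and basophil list, FCER1A and CPA3 were listed at 0, MS4A2 and TPSAB1 were low and HDC stood at 3831. In the megakaryocyte list of PF4, ITGA2B, GP6, GP9 and PPBP, only ITGA2B exceeded a base mean of 10, at 660. GSE1, the gene that the hairpins target, had base means of 2963 and 4441, and KDM1A, which encodes LSD1, of 7648 and 6285. MPO alone made up 1.25% and 2.00% of the summed base means of all genes.

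The Fc receptor genes together made up a small part of this RNA. Their base means summed to 2283 in the knockdown experiment and to 1698 in the inhibition experiment. Of the 7 genes, 6 reached a base mean of 10 in each experiment, as did 63.1% and 63.0% of all protein-coding genes. Among protein-coding genes at 1 or more, called expressed here, the median base mean was 704 and 635, and the base means of FCGR1A, FCGR2B, FCER1G, FCAR and FCGRT lay below it in both experiments. FCGR3A was the one member under 1.

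**Figure D1:**
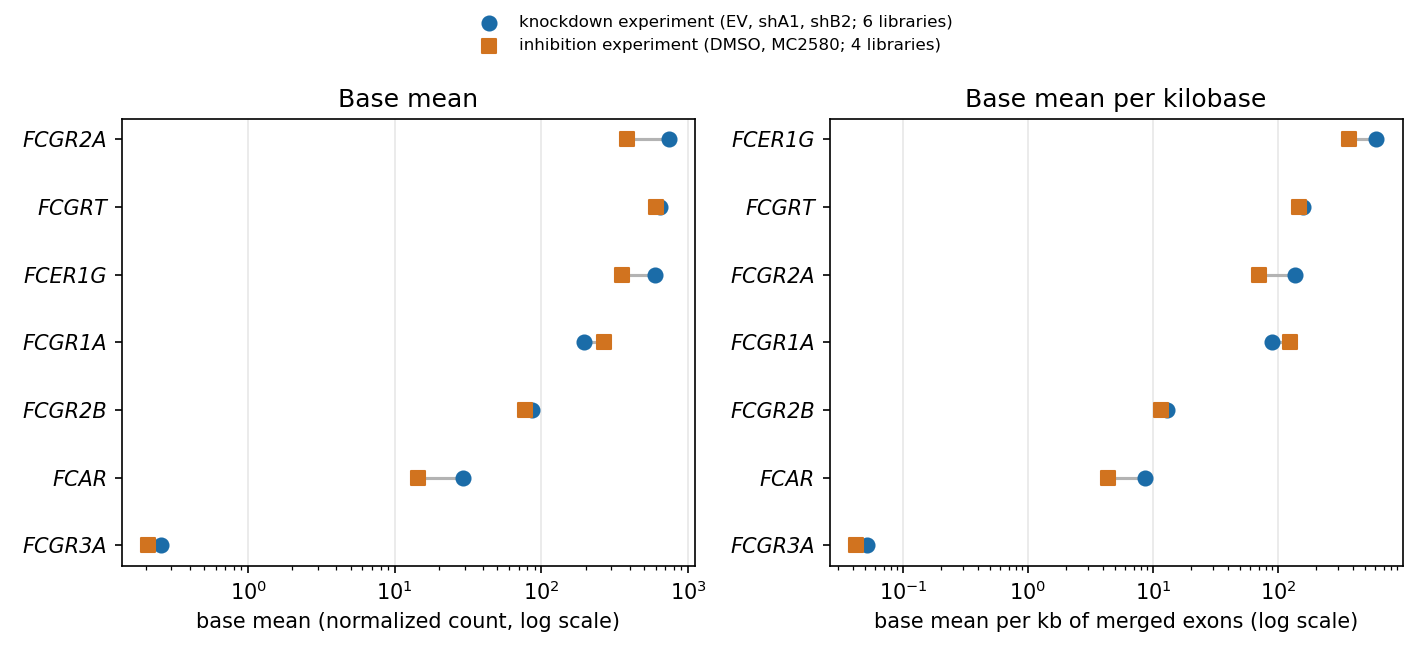
Base mean of the 7 Fc receptor genes on a log axis, as deposited (left) and divided by the kilobases of merged exons (right); circles are the average over the 6 libraries of the knockdown experiment and squares the average over the 4 libraries of the inhibition experiment, with no error available. FCER1G is highest per kilobase at 614 and 369, and FCGR3A is lowest with base means of 0.256 and 0.207.

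FCER1G, the signaling partner, had a base mean of 591 in the knockdown experiment and of 356 in the inhibition experiment. Its transcripts are short, with 964 bases of merged exons, so that per kilobase its level was 614 and 369, the highest of the Fc receptor genes in both experiments. Per kilobase, 80.7% of the expressed protein-coding genes were lower than FCER1G in the knockdown experiment and 72.7% in the inhibition experiment. The receptors that depend on it, FCGR1A, FCGR3A and FCAR, summed to 99.0 and 129 per kilobase. The gamma chain therefore exceeded its listed partners 6.20-fold and 2.87-fold in level per kilobase. FCGR1A accounted for most of the summed partner level in both experiments. TYROBP (DAP12), an adaptor with the same kind of motif that serves other receptors, was at 676 and 429 per kilobase, close to FCER1G, which had 0.908 and 0.861 times its level. HCST, the adaptor DAP10, followed with 261 and 257 per kilobase. CD247, the zeta chain, which also pairs with CD16 in NK cells, was low, with 2.25 and 2.07 per kilobase.

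FCER1G (ENSG00000158869.11) lies at 161215234 to 161220699 of chromosome 1 (GRCh38, plus strand). APOA2, an apolipoprotein gene of the liver that follows after 1.59 kb, had base means of 0.0915 and 0.723. It was thus lower than FCER1G in both experiments.

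FCGR1A, which encodes the high-affinity IgG receptor, had a base mean of 195 in the knockdown experiment and of 268 in the inhibition experiment. Per kilobase of merged exons its level was 90.3 and 124, the fourth highest in the knockdown experiment and the third highest in the inhibition experiment. Of the expressed protein-coding genes, 34.6% and 38.8% had a lower base mean. The level of FCGR1A is less certain than that of the other genes. Of the 50-base stretches in its annotated transcripts, 22.1% occur in no other gene, and 69.9% also occur in the related entry FCGR1BP. The row listed as FCGR1B has a different identifier. All of its stretches recur in FCGR1BP and 67.7% recur in FCGR1A, so that it has none of its own. FCGR1B had base means of 55.5 and 83.2. How the reads common to these genes were divided by the authors' quantification was not tested. FCGR1A (ENSG00000150337.13) lies at 149782671 to 149791675 on chromosome 1, on the plus strand. The histone gene H2BC18, which overlaps it on the minus strand, had base means of 14.6 and 17.7, and the library kit does not mark the strand, so that reads from the overlap cannot be told apart. The next protein-coding gene, the histone gene H3C13, begins 21.5 kb further on and had base means of 3.74 and 8.68. PPIAL4C, 198 kb on the other side, has no matching row in the tables.

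FCGR2A, which carries its own ITAM and is the most widely expressed IgG receptor of myeloid cells, had a base mean of 736 in the knockdown experiment, the highest of the set there, and of 381 in the inhibition experiment. Per kilobase the levels were 136 and 70.2. Of the expressed protein-coding genes, 50.7% and 42.9% had a lower base mean. FCGR2A (ENSG00000143226.13) lies at 161505430 to 161524013 on chromosome 1, plus strand. HSPA6, a stress-inducible HSP70 gene, starts 0.526 kb after it and had base means of 40.4 and 21.9. CFAP126, a gene of motile cilia 138 kb before FCGR2A, was listed at 0 in both experiments.

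The sequences before the start sites of FCGR1A and FCGR2A are shown because they share the longest run of bases found between any pair of these genes. The RefSeq promoter table for GRCh38.p14 has entries for 6 of the 7 genes, all but FCAR. In the 250 bases before each start, FCGR1A and FCGR2A have a run of 20 identical bases in common, and of 35116 promoters in the table, only these 2 hold it in this orientation. The stretches of 100 bases printed below end just before the first annotated transcript of each gene, at chr1:149782571-149782670 and chr1:161505330-161505429 on the plus strand, and the shared run is in capitals.
FCGR1A: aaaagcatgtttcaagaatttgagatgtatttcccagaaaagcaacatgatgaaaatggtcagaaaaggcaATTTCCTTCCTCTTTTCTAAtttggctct
FCGR2A: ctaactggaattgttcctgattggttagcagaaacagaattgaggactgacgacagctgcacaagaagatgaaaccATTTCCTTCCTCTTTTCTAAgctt
The run begins 52 bases before the RefSeq start of FCGR1A and 51 bases before that of FCGR2A, and so lies at nearly the same place. It includes CTTCCTC, the reverse complement of GAGGAAG, a form of the box read by PU.1, the ETS factor of the myeloid lineage. GAGGAAG was found on either strand in 11.2% of all promoters in the table, so that its presence alone sets few genes apart. TTCNNNGAA, a form of the gamma-activated site, was found once in FCGR1A, starting 93 bases before the start, and in 6.57% of all promoters. These are matches of letters, and binding was not examined. The longest run shared by any other pair of members was 11 bases.

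Per kilobase, FCGR1A and FCGR2A changed places between the experiments, whereas by base mean FCGR2A was the higher in both. In the knockdown experiment FCGR2A was 1.504 times as high as FCGR1A per kilobase, and in the inhibition experiment FCGR1A was 1.77 times as high as FCGR2A. Without an error for either value, it is not known whether this difference exceeds the spread between libraries.

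FCGR2B, the inhibitory counterpart of FCGR2A, had base means of 86.1 and 77.8, lower than FCGR2A in both experiments. In level per kilobase, FCGR2A exceeded FCGR2B 10.5-fold in the knockdown experiment and 6.01-fold in the inhibition experiment. At 12.9 and 11.7 per kilobase, FCGR2B was in the fifth place in each. FCGR2C, which arose from FCGR2B and FCGR2A by unequal crossing over and is listed in the tables as a polymorphic pseudogene, had base means of 29.1 and 53.0. Of the 50-base stretches of FCGR2B, 86.8% occur in no other gene and 12.7% recur in FCGR2C. For FCGR2A, 74.1% occur in no other gene.

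FCGR2B (ENSG00000072694.20) lies at 161663143 to 161678654 on chromosome 1, plus strand, and has 2 start sites in the RefSeq table. Its promoter is shown because the downstream start has matches to 3 of the 6 motifs searched. The 190 bases before the downstream start, chr1:161662953-161663142, have in capitals GAGGAAG, TTCNNNGAA and an interferon-stimulated response element motif (a pair of GAAA separated by any 2 bases), on either strand.
FCGR2B: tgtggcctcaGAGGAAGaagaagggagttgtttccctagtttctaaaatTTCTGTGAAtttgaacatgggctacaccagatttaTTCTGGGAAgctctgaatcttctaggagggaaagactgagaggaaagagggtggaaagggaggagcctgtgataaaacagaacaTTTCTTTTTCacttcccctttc
GAGGAAG begins 180 bases before this start and TTCNNNGAA 141 and 106 bases before it. The interferon motif matched the minus strand from 22 bases before it, matched FCGR3A 52 bases before 1 start, and was found in 3.02% of all promoters. The matches in this stretch do not overlap. The motif letters were chosen after the promoters had been seen. AGGAAGT, a related ETS core, was found in FCGR3A alone among the members, 43 bases before 1 of its RefSeq start sites, and in 7.01% of all promoters. TATAAA matched FCGR2A and FCGR3A, 146 and 202 bases before a start, and 10.7% of all promoters. TTGCNNAA, a form of the C/EBP site, matched none of the members' promoters, which says only that these letters are not in these windows.

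FCGR3A, the receptor through which NK cells and some monocytes kill antibody-coated cells, had base means of 0.256 and 0.207, at the bottom of the set. FCGR3B, the neutrophil form anchored by a lipid, was listed at 0 in the knockdown experiment and at 0.941 in the inhibition experiment. Both CD16 genes were therefore at or near the limit of detection. FCGR3A (ENSG00000203747.11) lies on the minus strand at 161541759 to 161550968 on chromosome 1, between FCGR2A and FCGR2B. Of its 50-base stretches, 79.7% occur in no other gene and 16.6% recur in FCGR3B.

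The 173 kb from the start of FCGR2A to the end of FCGR2B hold 14 annotated genes in GENCODE release 44. The levels along it did not follow position. FCGR2A was at 736 and 381, FCGR3A under 1, FCGR2C at 29.1 and 53.0, FCGR3B at 0 and 0.941, and FCGR2B at 86.1 and 77.8, in the order of their positions. HSPA7, a pseudogene next to FCGR2C as HSPA6 is next to FCGR2A, had base means of 36.1 and 64.7. The ribosomal protein pseudogenes RPS23P10 and RPS23P9 were listed at 0 in both experiments. Among the lncRNAs, ENSG00000273112 and ENSG00000224515 were listed at 0 in both and ENSG00000234211 at 0 and 0.364, whereas ENSG00000289273 and the protein-coding ENSG00000289768 have no row in the tables. Next to FCGR2B, after 28.3 kb, lies FCRLA, a relative of the Fc receptors known from B cells, with base means of 14.2 and 62.1.

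**Figure D2:**
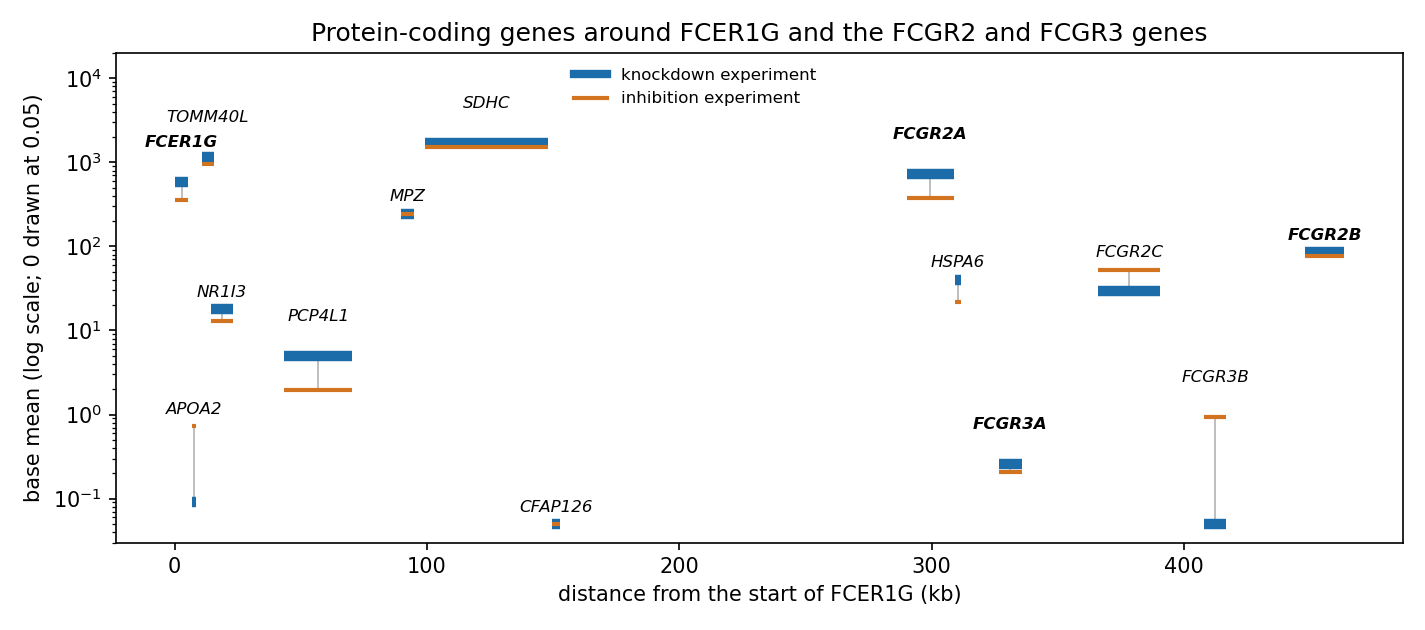
Protein-coding genes from FCER1G to FCGR2B by distance from the start of FCER1G in kb, each drawn over its annotated length at its base mean on a log axis; wide bars are the knockdown experiment and narrow bars the inhibition experiment, and members are in bold. FCGR3A and FCGR3B lie under 1 between FCGR2A and FCGR2B, which reach 736 and 86.1 in the knockdown experiment.

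FCAR, the IgA receptor of neutrophils and monocytes, had base means of 29.0 and 14.5 and was above FCGR3A alone in each experiment. Its levels per kilobase were 8.72 and 4.36. Of the expressed protein-coding genes, 22.1% and 18.97% had a lower base mean. FCAR (ENSG00000186431.19) lies at 54874235 to 54891420 on chromosome 19, plus strand, in the leukocyte receptor complex. KIR3DL2, an NK cell receptor gene 7.03 kb before it, had base means of 0.349 and 0.879, and NCR1, an NK cell receptor gene 14.7 kb after it, was at 0.804 and 0. The base means of FCAR were thus above those of both neighbours.

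FCGRT, which encodes the heavy chain of FcRn, had base means of 646 and 602, below FCGR2A alone in the knockdown experiment and the highest of the set in the inhibition experiment. Per kilobase of merged exons it was below FCER1G alone in both, at 159 and 149. Per kilobase of the longest transcript, FCGR2A was above FCGRT in the knockdown experiment, at 278 against 241. Its annotated transcripts share no 50-base stretch with another gene. B2M, which encodes the partner beta-2-microglobulin, was at 6072 and 5779 per kilobase and exceeded FCGRT 38.1-fold and 38.9-fold. B2M also pairs with all class I HLA chains. FCGRT (ENSG00000104870.12) lies at 49506816 to 49526428 on chromosome 19, plus strand. RCN3, which encodes a calcium-binding protein of the secretory pathway and begins 1.57 kb after it, had base means of 58.4 and 51.2.

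The order of levels per kilobase of merged exons was FCER1G, FCGRT, FCGR2A, FCGR1A, FCGR2B, FCAR and FCGR3A in the knockdown experiment. In the inhibition experiment FCGR1A and FCGR2A were exchanged and the other genes kept their places, and the exchange is not seen in the base means before division by length. The closest neighbours in the order were FCGRT and FCGR2A in the knockdown experiment, 1.17-fold apart, and FCGRT and FCGR1A in the inhibition experiment, 1.20-fold apart. FCGRT and FCGR2A changed places in the knockdown experiment when the longest transcript was used as the length. FCGR2B and FCAR were 1.48-fold and 2.68-fold apart. The widest steps set FCGR3A below FCAR and FCGR2B below the genes ahead of it. With no spread over libraries, which neighbours differ beyond error could not be determined.

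The base means of the experiments can be set side by side only as a description, since each table was normalized by itself and the experiments differ in transduction, treatment and time, which cannot be told apart. Over the 10916 protein-coding genes that reached a base mean of 50 in each table, the median ratio of the knockdown to the inhibition experiment was 1.05, and ratios were centred on it. After this, 10.1% of the genes were more than 1.5 times as high in the knockdown experiment and 8.38% in the inhibition experiment. FCAR was 1.91 times as high, FCGR2A 1.84 times and FCER1G 1.59 times. FCGR2A had a higher ratio than 96.2% of these genes and FCER1G than 92.3%, while FCAR is under the floor of 50 and was not ranked. FCGR2B and FCGRT lay near the median gene with ratios of 1.06 and 1.02. FCGR1A lay on the other side, 1.44 times as high in the inhibition experiment, and 10.4% of the genes had a lower ratio. FCGR1B was 1.57 times as high there. It shares 67.7% of its 50-base stretches with FCGR1A and has none of its own, and how shared reads were divided was not tested. FCGR2C was 1.91 times as high in the inhibition experiment, on the opposite side to FCGR2A, but its base mean of 29.1 in the knockdown experiment is under the floor. Of the 50-base stretches of FCGR2C, 54.2% occur in no other gene, 26.2% recur in FCGR2B and 17.9% in FCGR2A. How the reads common to these 3 genes were divided was not tested either. No ratio is given for FCGR3A, which was under 1 in both. Of the monocyte markers, the base means of CD14 were 31.6 and 17.5, of VCAN about 10 and 4.62, of CSF1R 668 and 729 and of CD163 0.170 and 2.73, and their part in the ratios of the receptors was not tested.

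**Figure D3:**
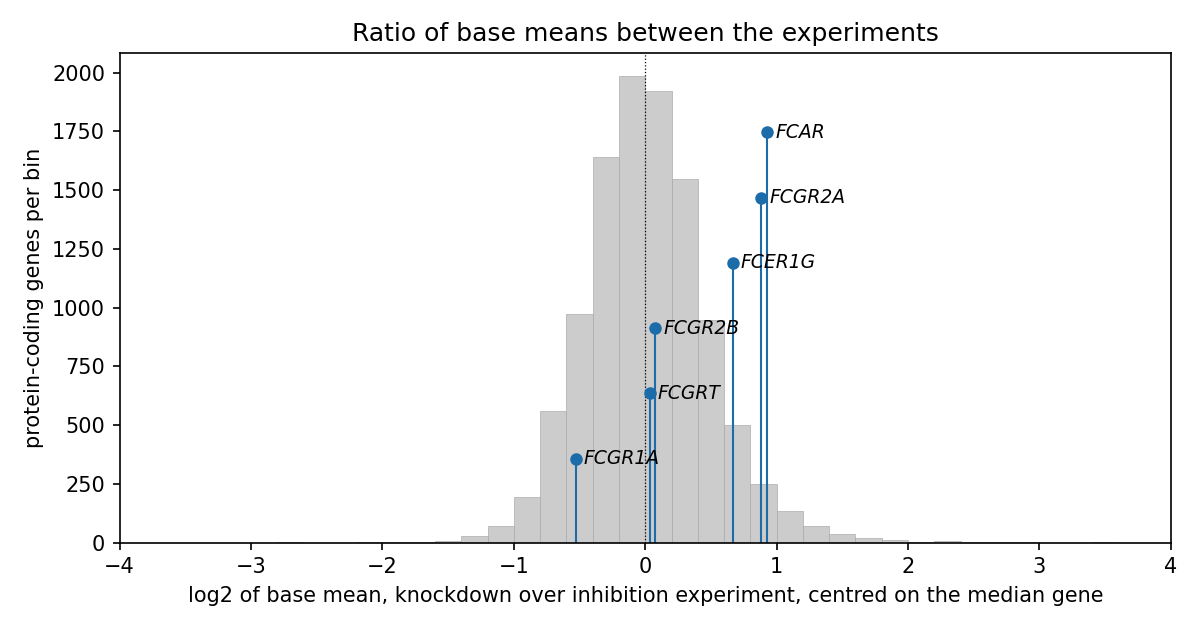
Ratio of base means, knockdown over inhibition experiment, on the log2 scale and centred on the median gene; grey bars count 10916 protein-coding genes per bin and blue lines mark 6 Fc receptor genes, with heights chosen only to separate the labels. FCAR, FCGR2A and FCER1G lie to the right at 0.93, 0.88 and 0.66, FCGR2B and FCGRT near 0, and FCGR1A to the left at -0.53.

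The lists of proteins that act on the receptors' motifs or downstream of them differed in level. Src family kinases phosphorylate the ITAM and SYK then docks on it. Of 10 Src and Syk family genes, 8 had a base mean of at least 10 in each experiment, against 63.1% and 63.0% of all protein-coding genes, with a range from 0 for BLK, a B cell kinase, to 7258 and 6038 for SYK. ZAP70, the relative of SYK used by T cells, was at 10.9 and 20.3. All 19 effectors downstream of activating receptors exceeded 50 in both experiments, as did 55.9% and 55.4% of all protein-coding genes. The lowest was TEC, a kinase at 270 and 219. The highest in the knockdown experiment was LAT2, an adaptor of the plasma membrane at 11272 and 13093, and in the inhibition experiment GRB2, a cytosolic adaptor, was higher at 13218. Per kilobase, the median effector stood at 324 and 303, the median Src or Syk family gene at 104 and 33.2, and the median Fc receptor gene at 90.3 and 70.2. The median expressed protein-coding gene was at 127 and 110 per kilobase, above the medians of the kinases and of the receptors.

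Transcripts of phosphatases and other proteins that act as brakes for inhibitory receptors in general were higher than FCGR2B itself. INPP5D, which encodes SHIP1, the lipid phosphatase that docks on the ITIM, had base means of 7668 and 5613. INPPL1, its relative SHIP2, was the highest of the 6 genes of this list, at 14275 and 14057, and DOK1, an adaptor, the lowest, at 2631 and 2505. The tyrosine phosphatase genes PTPN6 and PTPN11 and CSK, the kinase that holds Src family kinases inactive, lay between them. The median of the list per kilobase was 1167 and 1153, against 12.9 and 11.7 for FCGR2B.

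Among 18 other Fc receptor and immunoglobulin-binding genes, 8 and 6 had a base mean of at least 10 in the knockdown and the inhibition experiment. Of all protein-coding genes, 63.1% and 63.0% did. Of these 18 genes, 8 and 7 were under 1, whereas 14950 and 15100 of all 19975 protein-coding genes were at 1 or more. TRIM21, which binds antibody in the cytosol and is expressed in most cells, was the highest at 1225 and 924. FCER1A, the ligand-binding chain of the IgE receptor that also signals through FCER1G, was listed at 0 in both. Its beta chain MS4A2 had base means of 16.5 and 33.1.

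**Figure D4:**
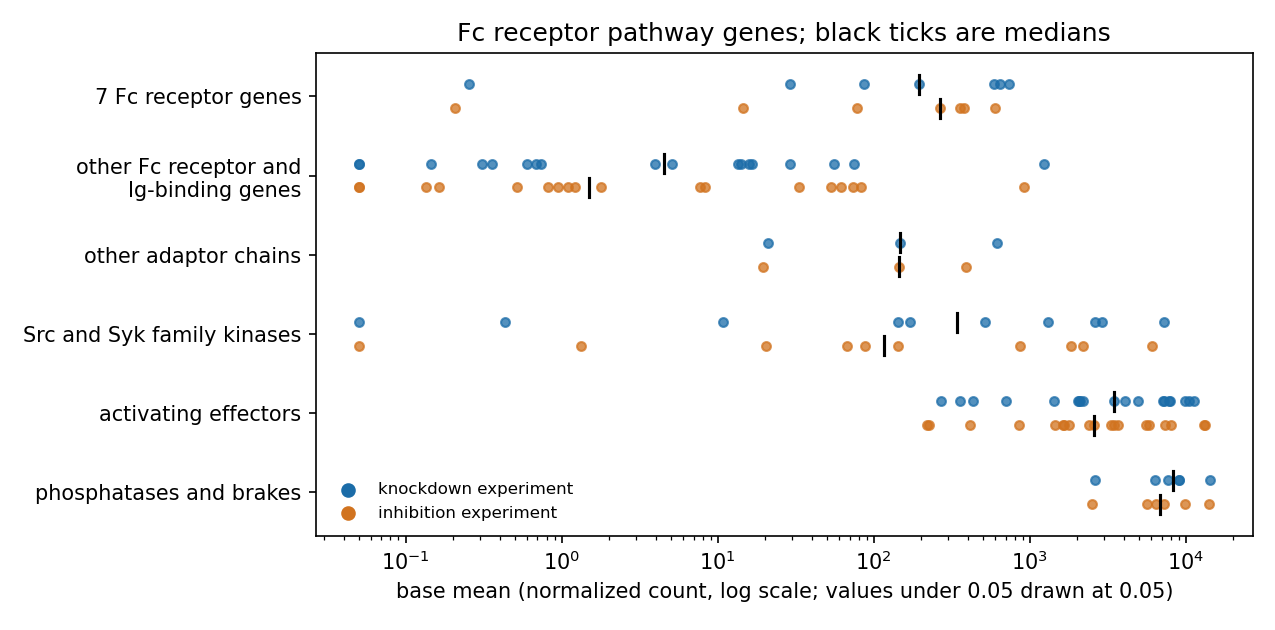
Base mean of each gene on a log axis for the 7 Fc receptor genes and 5 lists of related genes; blue points are the knockdown experiment, orange points the inhibition experiment and black ticks the medians of each list. The medians of the receptors, 195 and 268, lie below those of the effectors, 3445 and 2585, and of the phosphatases and brakes, 8326 and 6855.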

How the data were processed

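NB4 RNA was measured by mRNA-seq with TruSeq RNA v2 libraries. Per the labels, the authors mapped reads to hg38 with STAR 2.7 and quantified genes with RSEM, and they fitted DESeq2, whose version is not given in the sources used here. The authors deposited signal values only as pooled base means, that is, estimated counts divided by size factors and averaged over all libraries of an experiment. The knockdown table holds this column 2 times with the same values. The other columns hold the authors' own comparisons (log2 fold changes, standard errors, statistics and p-values) and were not used. As no value per library is given, depth per library, errors and tests were not obtained, and the precision of a base mean is unknown.

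The members, gene lists and searches were chosen with earlier results of these data known. Genes named were the members, their neighbours, the genes between FCGR2A and FCGR2B, GSE1 and KDM1A, the highest and lowest gene of each list and all genes of lists of at most 6, and some of these are not reported here. Annotation and merged exon lengths came from GENCODE release 44, which matched 60261 of 60603 identifiers; the release that the authors used is not given in the sources used here. Expressed means a base mean of at least 1. Transcript stretches of 50 bases were counted as distinct sequences. Promoters came from RefSeq. Promoter motifs and the comparisons of FCER1G with TYROBP and of FCGRT with B2M were added after values or sequences were seen. Python 3.11.15 and pandas 2.3.3 were used. The ranking and the median ratio were checked on made-up numbers with known answers, which covers only the arithmetic. The alternatives tried were other floors, gene types, lengths and scalings.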

Additional observations from a re-analysis of the deposited data

How the results depend on the processing

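Of 134 values recomputed under the alternatives, 113 stayed within 1.5 times of the value reported, a limit used because no replicate spread exists. Ranked among coding genes at a base mean of 10 or more, the share of lower genes was 22.5% for FCGR1A, 15.5% for FCGR2B and 7.68% for FCAR in the knockdown experiment, and 15.3% for FCGR2B and 2.77% for FCAR in the inhibition experiment, as fewer low genes remain. Among genes of every type it was 56.0% for FCGR1A, 50.6% for FCGR2B and 42.2% for FCAR in the knockdown experiment and 59.5%, 50.9% and 36.6% in the inhibition experiment, as low noncoding genes enter. Per kilobase, 80.7% and 72.7% of genes were lower than FCER1G. Without division by length, FCER1G exceeded its partners 2.64-fold and 1.26-fold. At a floor of 50, the genes counted fell to 3 of the other Fc receptor genes, 2 monocyte, 2 B cell, 2 T cell and 1 mast cell gene in the knockdown experiment, and to 2 B cell genes in the inhibition experiment. Of all protein-coding genes, 55.9% and 55.4% reached that floor in the knockdown and the inhibition experiment. Scaling the ratios between the experiments by the summed base means or by a median over genes at 10 or more only divided all of them by another constant. The constants were 0.984 and 1.047 in place of 1.049, so that no ratio could leave the limit. These values, which are part of the 113, thus say nothing about how firm the ratios are. No paired analysis was possible because the tables hold no value per library, and leaving out replicates was not run for the same reason.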

Other observations

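A pair of genes related to the Fc receptors differed more between the experiments than the receptors did, and were picked after their values were seen. FGR, a Src family kinase of phagocytes, had base means of 143 and 67.1 in the knockdown and the inhibition experiment and was 2.03 times as high in the knockdown experiment after centring on the median gene. FCRLA, a gene beside FCGR2B, was 4.59 times as high in the inhibition experiment, with base means of 14.2 and 62.1. Its base mean in the knockdown experiment is under the floor set for ratios, as for FCAR and FCGR2C. The ratio of FCRLA therefore rests on a low value and was not ranked. As for the receptors, these ratios carry no error, and the differences between the experiments in transduction, treatment and time cannot be told apart.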
